A study of Homo sapiens with 18 samples.

Results

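Solute carriers are membrane proteins that move sugars, amino acids, ions, metals, vitamins, drugs and metabolites across cell and organelle membranes, and their genes carry symbols beginning with SLC, or SLCO for the organic anion transporters. Binding of 2 transcription factors around these genes was taken from a table of 11571 genomic sites, each 400 bp wide, by keeping every site whose nearest gene, as the authors assigned it, had an SLC or SLCO symbol. This gave 266 sites at 108 genes. One of the 108, SLC9A7P1, is a pseudogene, and the other 107 made up 26.9% of the 398 protein-coding SLC and SLCO genes in the RefSeq gene table used here.

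The factors were the glucocorticoid receptor (GR) and RELA, a subunit of NF-κB, mapped by chromatin immunoprecipitation and sequencing (ChIP-seq). The cells were A549, an established line from a human lung adenocarcinoma that serves as a model of the airway epithelium. Cells received no stimulus (NS), 1 ng/mL IL-1β, 300 nM budesonide, or both agents (IL-1β-plus-budesonide, the cotreatment) for 1 hour, and each of these 4 conditions had 2 GR and 2 RELA libraries from 2 independent experiments, besides 2 input libraries. The values analysed are those of GR with budesonide, GR with IL-1β-plus-budesonide, RELA with IL-1β and RELA with IL-1β-plus-budesonide. Each is the authors' mean over the libraries of a condition, so no spread between experiments can be given, no comparison below carries a test, and the read depth behind a value is unknown.

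Budesonide is a glucocorticoid. On binding such a hormone, GR enters the nucleus and binds DNA at glucocorticoid response elements (GREs), or near other factors already on the DNA. IL-1β is an inflammatory cytokine that releases NF-κB to the nucleus, where RELA binds κB elements. Inflammation is known to alter how epithelial cells handle zinc, iron, glucose and amino acids, and transporters such as the zinc importers SLC39A8 and SLC39A14 are known targets of cytokines in other settings.

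Binding is given as an intensity, the log2 of the mean normalized reads of a site, in which 0 is the lowest value listed. A difference of 1 is a 2-fold difference in reads. A site is called occupied here at an intensity of 4 or more. Intensities of GR and RELA come from different antibodies and are compared within a factor only. Coordinates are of GRCh38, and distances run from the centre of a site to the annotated start of its gene, negative upstream.

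The sequences below are examples of the elements that GR and RELA are known to bind, as found in some of the sites described further on. Most transporter sites held neither. A GRE was searched as the core ACANNNTGT (N is any base) preceded by G and followed by C, each with 1 further base of any kind between, and a κB element as GGG and TTTCC with any 2 bases between. Both strands of the 200 bases around the centre of each site were searched, and capitals mark the matched element. The first 4 are GREs at sites of high GR intensity, and the next 2 are GREs at sites where GR was lower with the cotreatment than with budesonide alone. Each is read on the plus strand.
SLC38A2, 121.3 kb upstream, chr12:46494089-46494117: taggaaaaGCACAGGATGTTCttgttgtc
SLC25A33, 103.0 kb upstream, chr1:9436476-9436504: atttctcaGTACACGATGTACaagtggcc
SLC38A2, 72.9 kb upstream, chr12:46445677-46445705: aagtactaGAACATTTTGTACttgtgtgt
SLC25A13, 27.6 kb upstream, chr7:96349717-96349745: tgctcctgGAACAGGATGTTCtacaatgc
SLC7A11, 265.3 kb upstream, chr4:138507636-138507664: tgtttgaaGTACAACATGTACtcaagcag
SLC39A10, 878.6 kb upstream, chr2:194697437-194697465: tttcatttGTACAGCATGTACaattttat

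The κB elements shown lie in RELA sites of high intensity at SLC28A1, a nucleoside transporter, SLCO3A1, an organic anion transporter, SLC41A2, a magnesium transporter, and SLC39A10, a zinc importer. SLC28A1 is read on the minus strand and the others on the plus strand.
SLC28A1, intron, chr15:84930217-84930246: ctggaatcttGGGATTTTCCctccaccagg
SLCO3A1, intron, chr15:91953658-91953687: ggttggcagtGGGAATTTCCcacctctgtt
SLC41A2, intron, chr12:104930782-104930811: gaaaacaaggGGGAATTTCCcaagaccagt
SLC39A10, start site, chr2:195576224-195576253: ataaaatcctGGGAATTTCCccctcctcat

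A GRE and a κB element stood together in the central 200 bases of 4 of the 266 sites, against 49 of all 11571. One of these, 29.6 kb upstream of SLC46A1, the proton-coupled folate transporter, held its GRE on the plus strand and its κB element on the minus strand.
SLC46A1 GRE, chr17:28436778-28436806: tccaacgtGAACAAGCTGTCCtctctgga
SLC46A1 κB, chr17:28436837-28436866: gggaaggtatGGGAATTTCCagaatgatga

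A GRE was found in 30 of the 266 transporter sites (11.3%), beside 10.9% of all sites, and a κB element in 22 (8.27%), beside 10.4%. Of the 30 sites with a GRE, 26 were occupied by GR with budesonide (86.7%, beside 92.7% of the 1262 sites of the table with a GRE) and 26 with the cotreatment (beside 86.8%). Their median GR intensity with budesonide was 5.25, beside 4.64 at the 236 transporter sites without one and 5.36 at the 1262. Their median RELA intensity with IL-1β was 2.18, beside 2.64 at the 1262, and 6 of the 30 were occupied by RELA with IL-1β (20.0%, beside 9.98%). The 22 sites with a κB element were the other way round. RELA occupied 17 of them with IL-1β (77.3%) and 20 with the cotreatment (90.9%), beside 89.4% and 90.0% of the 1199 sites of the table with this element. GR occupied 3 of the 22 with budesonide and 14 with the cotreatment (63.6%), beside 12.8% and 46.3%. The median GR intensity at sites with a κB element was 2.96 with budesonide and 4.49 with the cotreatment, and over the 1199 it was 2.63 and 3.89. Several of the strongest GR sites held neither a GRE nor its core: within their central 200 bases the sites of SLC19A2 and SLCO4A1 had no match even to ACANNNTGT. The strongest of all, 58.8 kb upstream of SLC45A1, had 1 match to this core, shown here on the plus strand with the core in capitals.
SLC45A1, 58.8 kb upstream, chr1:8259365-8259393: tgtttatttgACAGAGTGTtctgtcccat

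GR occupied 171 of the 266 transporter sites with budesonide (64.3%) and 197 with the cotreatment (74.1%), where the shares over the whole table were 61.5% and 68.2%. RELA occupied 133 with IL-1β and 153 with the cotreatment (57.5%), beside 54.5% and 61.8%. Median GR intensities were 4.69 with budesonide and 4.75 with the cotreatment, and those of RELA were 4.00 with IL-1β and 4.38 with the cotreatment. The medians over all sites were 4.65 and 4.64 for GR and 4.26 and 4.37 for RELA. By gene, 78 of the 108 had a site occupied by GR with budesonide, 89 with the cotreatment, 71 a site occupied by RELA with IL-1β and 75 with the cotreatment. These shares of 72.2%, 82.4%, 65.7% and 69.4% stood beside 70.7%, 77.4%, 68.1% and 73.5% of the 4714 genes of the table. Both factors were found at 68 genes in at least 1 of the treatments (63.0%, beside 62.8%), GR without RELA at 25 (beside 20.4%) and RELA without GR at 15 (beside 16.4%).

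The nearest gene is a label of position. The median distance from a site to the start of its gene was 45.7 kb, 202 of the 266 sites lay in the gene or within 50 kb of it, 31 lay more than 200 kb from the start, and at 48 sites another protein-coding gene had the closer start in the GENCODE annotation. Introns of the assigned gene held 110 sites (41.4%, beside 39.1% of all sites), its exons 22, other genes 15, and the space between genes 119. Places were read against protein-coding genes and the assigned transporter genes only, so a site between genes may lie in a noncoding gene. These values do not say which gene a site acts on.

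The highest GR intensity among the transporter sites was 9.61 with budesonide, at chr1:8259126-8259525, between genes and 58.8 kb upstream of SLC45A1, which encodes a proton-coupled sugar transporter. GR was 9.41 there with the cotreatment, and both values stood at percentile 99.9 among all sites of the table. RELA was 2.89 at the same site with IL-1β alone and 7.11 with IL-1β-plus-budesonide, the largest difference of RELA among the transporter sites. GR was thus almost equal in the 2 treatments at this site, where RELA was below the limit of 4 with IL-1β and well above it with the cotreatment.

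Other sites of high GR had the same form. At SLC45A4, a relative of SLC45A1, an intronic site had GR at 9.38 with budesonide and 9.34 with the cotreatment, and RELA at 5.86 with IL-1β and 7.42 with the cotreatment. At SLC19A2, the high-affinity thiamine transporter, the site covered the gene start itself (chr1:169485681-169486080), with GR at 8.56 in both treatments and RELA at 2.67 and 4.84. At SLCO4A1, an organic anion and thyroid hormone transporter, a site 18.4 kb upstream had GR at 8.44 and 8.49, and RELA at 3.91 and 5.03. At the GRE shown for SLC25A33, a mitochondrial pyrimidine nucleotide carrier, GR was 7.53 and 7.61, and RELA 1.73 and 4.26. At the GRE of SLC25A13, a mitochondrial aspartate-glutamate carrier, GR was 6.58 and 6.48, and RELA 0.05 and 3.96, just under the limit. In each of these sites GR differed little between treatments and RELA was higher in the presence of budesonide. Low RELA with IL-1β alone was not shared by all: at SLC45A4 RELA was above 4 in both treatments. Nor was the form general among sites of high GR, since GR was lower with the cotreatment at SLC2A14 and RELA was lower at SLC23A2, both described further on.

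**Figure D1:**
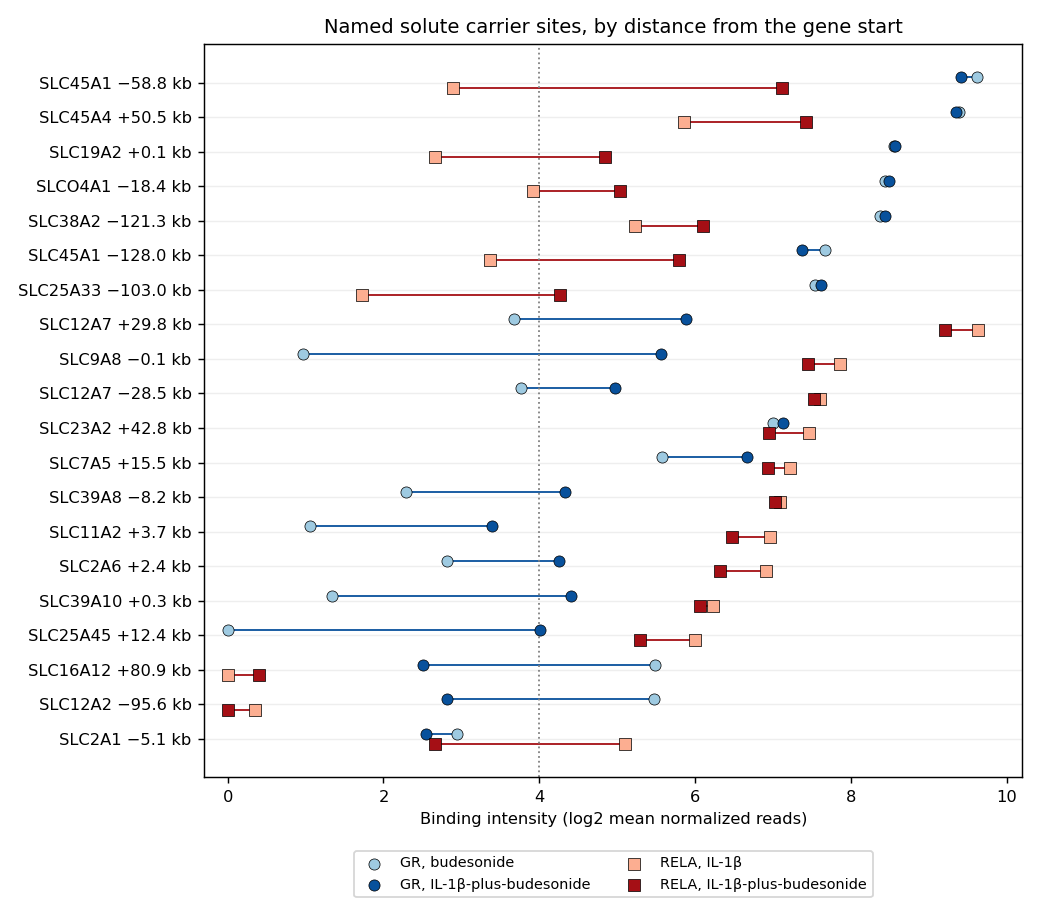
Binding intensity (log2 mean normalized reads, x axis) of GR (circles) and RELA (squares) at 20 named sites, with light symbols for the single treatment and dark symbols for IL-1β-plus-budesonide; the dotted line is the limit of 4, each symbol is the authors' mean, and labels give the distance from the gene start. In the upper 7 sites GR is high in both treatments and RELA is further right with cotreatment, whereas in the sites from SLC12A7 to SLC25A45 RELA is at 5.30 or more in both treatments.

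The strongest RELA sites had the reverse form. At SLC12A7, a potassium-chloride cotransporter, an intronic site at chr5:1082041-1082440 had RELA at 9.63 with IL-1β and 9.21 with the cotreatment, both at percentile 99.9 among all sites, and GR at 3.68 with budesonide and 5.88 with the cotreatment. The other 2 sites of SLC12A7 lay 28.5 kb and 27.8 kb upstream. Their RELA intensities were 7.60 and 5.40 with IL-1β and 7.53 and 6.25 with the cotreatment. GR was below 4 at all 3 sites with budesonide and between 4.97 and 5.88 at all 3 with the cotreatment.

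At SLC9A8, a sodium-proton exchanger, the site at the gene start (chr20:49812445-49812844) had RELA at 7.86 with IL-1β and 7.44 with the cotreatment. GR there was 0.97 with budesonide and 5.56 with the cotreatment, the largest difference of GR among transporter sites. At SLC25A45, a mitochondrial carrier, a site 12.4 kb from the gene start had GR at 0.00 with budesonide, the lowest value listed, and at 4.01 with the cotreatment, where RELA was 5.99 and 5.30. At SLC26A9, an epithelial chloride transporter, an intronic site 17.5 kb from the start had GR at 0.93 and 4.16 and RELA at 5.51 and 5.20. At SLC43A2, an amino acid transporter, GR was 1.22 and 4.16 and RELA 6.01 and 5.73 at an intronic site 51.5 kb from the start, for which PITPNA had the closer start. At the κB element shown for SLC28A1, RELA was 6.77 and 6.28 and GR 3.07 and 5.36, and at that of SLC41A2 RELA was 6.31 and 6.40 and GR 2.63 and 4.75. At these sites RELA was above 4 with and without budesonide, and GR was at 4 or more only with the cotreatment. The sites of SLC9A8, SLC25A45, SLC26A9 and SLC43A2 were picked for the largest rises of GR, so their course of GR follows from the pick. Those of SLC28A1 and SLC41A2 were added for their elements after their values were seen. RELA with IL-1β ranged from percentile 81.0 among all sites, at SLC26A9, to 99.2, at SLC9A8.

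Not every strong RELA site lacked GR with budesonide alone. At SLC23A2, a vitamin C transporter, an intronic site had GR at 7.00 with budesonide and 7.12 with the cotreatment, and RELA at 7.46 and 6.94. At SLC7A5, which carries large neutral amino acids, an intronic site had GR at 5.57 and 6.66 and RELA at 7.22 and 6.93. A second SLC7A5 site, 1.25 kb upstream of the start, had GR at 5.91 and 6.02 and RELA at 6.31 and 5.24. Both factors occupied all 3 of these sites in every treatment listed.

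Among the 223 transporter sites occupied by GR in either treatment, the cotreatment had GR higher by 1 or more at 55 (24.7%, beside 22.4% of all such sites) and lower by 1 or more at 38 (17.0%, beside 15.3%). Among the 172 sites occupied by RELA in either treatment, RELA was higher by 1 or more with the cotreatment than with IL-1β at 31 (18.0%, beside 17.5%) and lower by 1 or more at 13 (7.56%, beside 9.09%). When the median difference over all such sites of the table, -0.09 for GR and -0.13 for RELA, was subtracted first, GR was higher at 60 sites and lower at 32, and RELA was higher at 35 and lower at 8. The shares at transporter sites lay near those of the table as a whole.

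**Figure D2:**
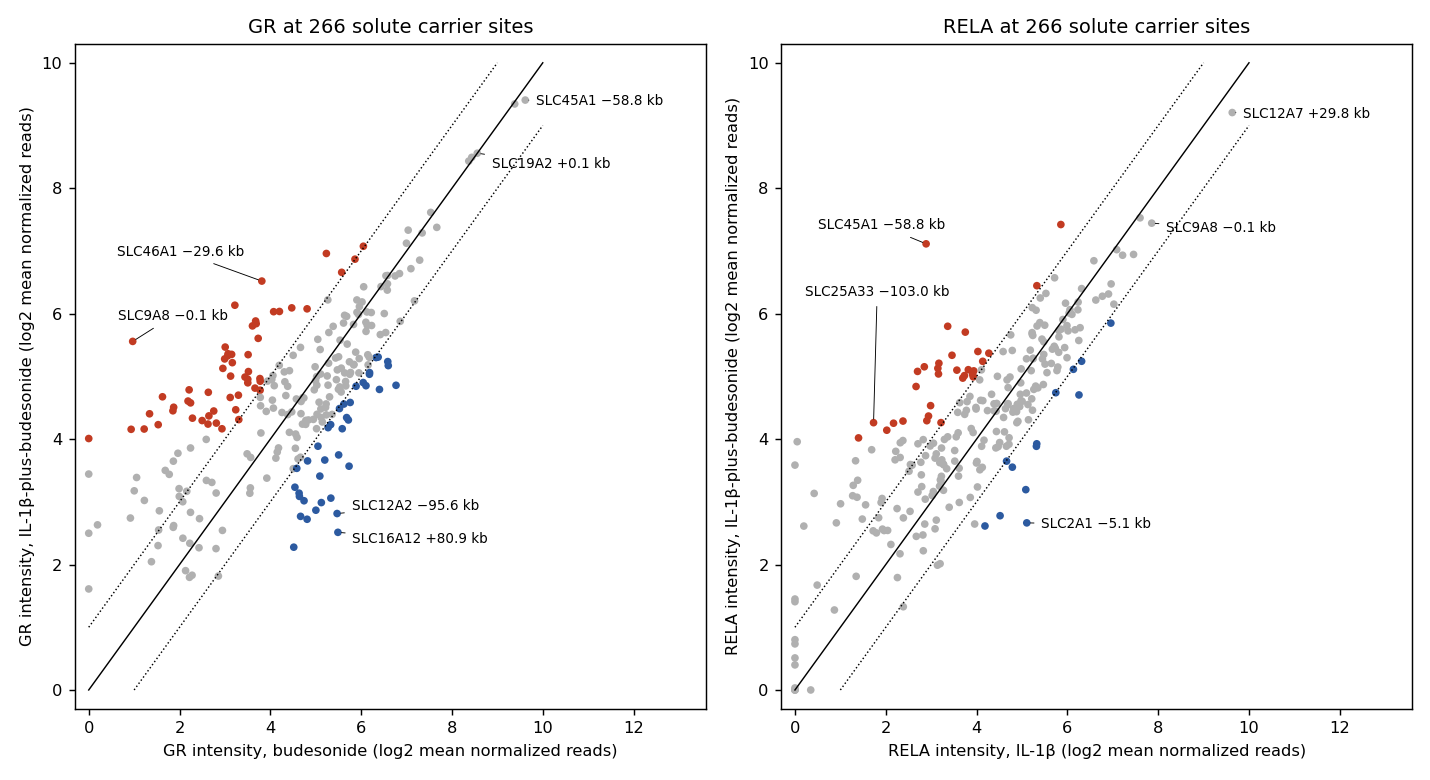
Intensity (log2 mean normalized reads) with IL-1β-plus-budesonide (y axis) against budesonide for GR (left) and against IL-1β for RELA (right); each of the 266 points is the authors' mean at 1 site, the solid line marks equal values and the dotted lines a difference of 1. Red points are higher and blue points lower by 1 or more with at least 1 value at 4 or above (55 and 38 sites in the GR panel, 31 and 13 in the RELA panel).

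Sites were also grouped by what they bound in the single treatments. GR alone, that is GR with budesonide but not RELA with IL-1β, occupied 120 of the 266 sites (45.1%), RELA alone 82, both factors 51 and neither 13. At the 120 sites of GR alone, RELA was higher with the cotreatment at 97 (80.8%, beside 81.1%) and joined GR above the limit at 29 (24.2%, beside 28.4% of such sites in the table). GR was lower with the cotreatment by 1 or more at 34 of the 120 (28.3%, beside 26.9%) and higher by as much at 1 (beside 2.61%). Its median difference was -0.61, beside -0.56 over such sites of the table. At the 82 sites of RELA alone, GR was higher with the cotreatment at 73 (89.0%, beside 88.1%), by 1 or more at 57 (69.5%, beside 55.7%), and both factors were occupied at 43 (52.4%, beside 36.4%). RELA at these 82 sites had a median difference of -0.41, beside -0.44 over such sites of the table. Of the 51 sites that bound both, 43 kept both (84.3%, beside 89.3%), with median differences of -0.00 for GR and -0.08 for RELA. Of the 13 that bound neither, 7 had both with the cotreatment (53.8%, beside 50.6%). A factor that is below 4 in a class by definition can only stay below or cross the limit upward. One that is at 4 or more by definition was picked for a high value, which favours a lower value with the cotreatment. Both points apply equally to the values over the whole table. Across the 265 transporter sites occupied by at least 1 factor in some treatment, the differences of GR and RELA had a Pearson correlation of -0.09 and a Spearman correlation of -0.12, which describe sites that share libraries.

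The 6 sites with the lowest GR relative to budesonide alone were sites where RELA was below 4 in both treatments. All 6 had GR at 4 or more with budesonide, as did 171 of the 266 transporter sites and 7120 of all 11571. RELA with IL-1β was below 4 at 120 of those 171 and at 4747 of those 7120. With the cotreatment, both factors were at 4 or more at 29 of the 120 and at 1350 of the 4747. At SLC16A12, a creatine transporter, an intronic site 80.9 kb from the start had GR at 5.49 with budesonide and 2.51 with the cotreatment, with RELA at 0.00 and 0.40. IFIT5 had the closer start for this site and for those 79.7 and 74.8 kb from the SLC16A12 start. All 5 sites of SLC16A12 had lower GR with the cotreatment, with medians of 5.49 and 3.68, and none was occupied by RELA. At SLC12A2, the sodium-potassium-chloride cotransporter of secretory epithelia, a site 95.6 kb upstream had GR at 5.47 and 2.81 and RELA at 0.35 and 0.00. SLC7A11, the cystine-glutamate exchanger that supplies cystine for glutathione, had 5 sites with GR between 4.52 and 5.07 with budesonide, all 5 lower with the cotreatment, where 2 stayed occupied. At its GRE printed above, 265.3 kb upstream, GR was 4.52 and 2.28, and RELA 0.00 and 0.03. The RELA intensities of all 5 SLC7A11 sites were between 0.00 and 3.63, so RELA occupied none. Lower GR was the usual direction at sites occupied by GR alone in the single treatments. GR was higher with the cotreatment at only 23 of 120 such transporter sites and at 1040 of 4747 in the whole table. At the SLC39A10 GRE 878.6 kb upstream, GR was 4.81 and 2.72 and RELA 3.19 and 3.62. GR was also lower by 1 or more at some sites with RELA above 4 in both treatments. At an intronic SLC23A2 site 37.4 kb from the start, GR was 6.37 and 5.31 and RELA 4.98 and 5.12. At an intronic SLC45A4 site 68.6 kb from the start, GR was 6.19 and 5.06 and RELA 4.67 and 4.94.

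RELA with the cotreatment was lowest relative to IL-1β alone at SLC2A1, the main glucose transporter of proliferating cells, where a site 5.10 kb upstream had RELA at 5.11 with IL-1β and 2.66 with the cotreatment, and GR at 2.94 and 2.54. The second SLC2A1 site, 80.6 kb upstream, had GR at 5.03 and 4.40 and RELA at 1.96 and 2.54. At SLC34A2, the phosphate transporter of alveolar type II cells, a site 79.6 kb upstream had RELA at 5.08 and 3.19 and GR at 2.13 and 1.90. A different SLC34A2 site, 46.6 kb downstream of the start, had GR at 7.04 and 7.33 and RELA at 3.17 and 5.21. At SLC5A11, an inositol transporter, RELA was 4.52 and 2.78 at an intronic site, with GR at 2.80 and 2.25. At SLC7A8, which carries neutral amino acids, RELA was 5.32 and 3.89, with GR at 2.71 and 3.31, at an intronic site for which CEBPE had the closer start. At SLC1A2, a glutamate transporter, 1 of 6 sites had RELA at 4.18 and 2.61. GR stayed below 4 in both treatments at each of these sites of lower RELA, which were picked for large differences. SLCO3A1, picked likewise, differed. Its site 94.8 kb from the start had RELA at 6.26 and 4.70 and GR at 2.63 and 4.24. For comparison, RELA occupied 133 transporter sites with IL-1β and 6308 of all sites. GR with budesonide was below 4 at 82 of those 133 and at 3935 of those 6308. With the cotreatment, both factors were at 4 or more at 43 of the 82 and at 1432 of the 3935. GR was above 4 in both treatments at some other sites with RELA lower by 1 or more. At the SLC7A5 site 1.25 kb upstream, RELA was 6.31 and 5.24 and GR 5.91 and 6.02. At an SLC12A2 site 125.0 kb upstream, RELA was 5.74 and 4.74 and GR 5.75 and 5.03.

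Sites at gene starts are the least ambiguous in their assignment, but they were few. The 10 sites with a centre within 1 kb of the start made up 3.76% of the transporter sites, beside 3.09% of all sites. GR occupied 3 of the 10 with budesonide, at SLC19A2, SLC51B and SLC6A19, and all 10 with the cotreatment, beside 46.8% and 66.7% of the 357 start sites of the whole table. GR was higher by 1 or more with the cotreatment at 7 of the 10, where it was so at 130 of the 357 (36.4%). The median GR intensities were 3.19 and 5.45, beside 3.76 and 4.78 over the 357. RELA occupied 6 of the 10 with IL-1β and 8 with the cotreatment (beside 77.0% and 82.6%), with medians of 4.10 and 5.05, beside 5.58 and 5.34.

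Besides SLC19A2 and SLC9A8, the start sites included that of SLC39A10, where GR was 1.34 with budesonide and 4.40 with the cotreatment and RELA 6.23 and 6.06 at the κB element shown. At SLC36A4, an amino acid transporter, GR was 3.22 and 6.13 and RELA 4.14 and 5.24. At SLC9A2, a sodium-proton exchanger of epithelia, GR was 3.69 and 5.84 and RELA 2.85 and 5.15, so that neither factor was at 4 in its single treatment and both were above it with IL-1β-plus-budesonide. At SLC6A19, a neutral amino acid transporter of kidney and gut, GR was 5.91 and 6.22, and RELA was 0.00 and 3.59, below the limit in both. SLC51B, a subunit of the bile acid and steroid exporter, was the 1 start site with lower GR in the cotreatment, at 6.60 and 5.17, with RELA at 3.62 and 3.54.

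Some loci held many sites. SLC38A2, which carries small neutral amino acids and is induced when they are scarce, had the most, with 14 sites, all between genes and from 11.2 to 183.5 kb upstream. GR occupied 13 of them with budesonide and 12 with the cotreatment, and RELA 5 and 6. The strongest, at the GRE 121.3 kb upstream, had GR at 8.37 and 8.43 and RELA at 5.23 and 6.10. The site at the GRE 72.9 kb upstream had GR at 7.34 and 7.29 and RELA at 2.99 and 4.53. Toward the gene, the site 31.1 kb upstream had GR at 5.73 and 3.57 with RELA at 0.49 and 1.67, and the site nearest the start, 11.2 kb upstream, had GR at 3.50 and 4.95 and RELA at 5.47 and 4.87. Sites of 1 gene therefore differed in both factors and in the direction of their differences.

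SLC45A1 had 11 sites, of which GR occupied 10 with budesonide and all 11 with the cotreatment. Of these, 7 lay within 37.2 kb of each other, from 106.0 to 143.2 kb upstream, with GR between 5.84 and 7.67 with budesonide. RELA was higher with the cotreatment at all 11 SLC45A1 sites, by 1 or more at 6, and its occupied sites numbered 3 with IL-1β and 7 with the cotreatment. Among the 120 transporter sites of GR alone in the single treatments, RELA was higher at 97. One site, 70.1 kb upstream, was of the other kind, with GR at 1.53 and 4.23 and RELA at 5.18 and 5.42.

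SLCO3A1 had 7 sites, all in introns, from 67.9 to 216.1 kb from the start. RELA occupied all 7 with IL-1β, between 4.66 and 6.63, and 6 with the cotreatment. GR occupied none with budesonide, where it was between 1.54 and 3.78, and 4 with the cotreatment, and it was higher in the cotreatment at all 7. Among the 82 transporter sites of RELA alone in the single treatments, GR was higher at 73. The site with the κB element shown had RELA at 6.63 and 6.22 and GR at 3.78 and 4.66. SLC39A11, a zinc importer, had 12 sites. Of these, 7 fell in a 58.4 kb stretch of its introns, 376.3 to 434.8 kb from the start. RELA there was between 5.22 and 6.58 with IL-1β and between 5.29 and 6.84 with the cotreatment, and GR occupied 3 of the 7 with budesonide and all 7 with the cotreatment. The strongest of the stretch had GR at 5.86 and 6.87 and RELA at 6.58 and 6.84. GR was higher with the cotreatment at all 7 and lower at all 5 of the other SLC39A11 sites, where GR was between 4.15 and 6.11 with budesonide and between 3.79 and 5.72 with the cotreatment, and RELA between 2.25 and 4.64 with IL-1β. The bounds of the stretch followed no rule set in advance, so this split is a description only. The sites next beyond it, 477.5 and 483.1 kb from the start and outside the gene, were among those with lower GR.

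The other zinc importer with many sites, SLC39A10, had 8. The 6 that lay more than 50 kb upstream of it, as far as 878.6 kb, had GR between 4.71 and 6.59 with budesonide. With the cotreatment GR was lower at all 6, by 1 or more at 2 of them, with differences from -2.09 to -0.05. Among the 120 transporter sites of GR alone in the single treatments, GR was higher with the cotreatment at only 23. RELA occupied 1 of these 6 sites with IL-1β and 2 with the cotreatment. SLC6A6, the taurine transporter, had 6 sites, of which GR occupied 5 with each treatment. Its strongest, 106.6 kb upstream, had GR at 7.29 and 6.85 and RELA at 0.20 and 2.61, and 2 others had RELA at 0.00 in both treatments. SLC22A3, an organic cation transporter, had 6 sites with GR up to 6.55 with budesonide and 6.60 with the cotreatment. Among these 6, 1 intronic site had GR at 0.00 and 3.44 and RELA at 3.92 and 4.10, and 1 site lay inside SLC22A2. SLC1A2 had 6 sites, with RELA up to 7.02 with IL-1β and 6.15 with the cotreatment, and GR up to 5.14 and 4.93.

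A list of 17 transporters of metals, glucose, amino acids, vitamins and ions known for responses to inflammation or glucocorticoids was examined as well. Of these, 11 had at least 1 site and the rest had none assigned, SLC2A3 among them. At SLC2A14, whose sequence is a near copy of SLC2A3, 2 sites upstream had GR at 7.17 and 6.54 with budesonide and 6.20 and 5.70 with the cotreatment, with RELA below 4.

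The metal transporters of the list had sites of high RELA intensity. SLC39A8 (ZIP8), a zinc and manganese importer known as an NF-κB target, had a site 8.20 kb upstream with RELA at 7.09 with IL-1β and 7.02 with the cotreatment and GR at 2.28 and 4.33. Its second site, intronic, had RELA at 6.96 and 5.85 and GR at 1.86 and 3.65. SLC11A2 (DMT1), the iron and manganese transporter, had 1 site, 3.67 kb from the start, with RELA at 6.96 and 6.47 and GR at 1.05 and 3.39. SLC39A14 (ZIP14), a zinc and iron importer of the acute phase, had 3 sites in the gene. One had GR at 7.10 and 6.72 and RELA at 3.75 and 5.71, and the other 2 had RELA between 5.24 and 5.82 with GR below 4 with budesonide and at 4.16 and 4.47 with the cotreatment. At these 3 genes, GR was thus at 4 or more with budesonide at 1 of 6 sites, and at 4 of 6 with the cotreatment. The shares over all sites of the table were 61.5% and 68.2%. The 3 genes were listed with earlier results known, and over all 33 metal transporter sites GR occupied 20 and 27.

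Of the remaining listed genes, SLC2A6, a glucose transporter of lysosomes, had an intronic site 2.36 kb from the start with RELA at 6.91 and 6.31 and GR at 2.81 and 4.25. SLC7A2, which carries arginine for nitric oxide synthesis, had a site 2.81 kb upstream with RELA at 6.17 and 5.74 and GR at 2.65 and 4.37. SLC1A5, a glutamine transporter, had a site 24.9 kb upstream with GR at 4.74 and 4.66 and RELA at 2.53 and 2.85. SLC2A6 and SLC7A2 had the form of SLC39A8, and SLC1A5 was occupied by GR only.

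Sites were also counted by what the transporters carry, to be read against the shares of all sites given above (61.5% and 68.2% occupied by GR, 54.5% and 61.8% by RELA, and 22.4% and 17.5% higher by 1 or more in GR and RELA). Amino acid transporters had the most sites, with 56 at 19 genes. GR occupied 42 with budesonide and 43 with the cotreatment, and RELA 24 and 23, and GR was lower by 1 or more in the cotreatment at 14 of 52 (beside 15.3% of all sites) and higher at 11. Sugar and nucleotide sugar transporters had 47 sites at 21 genes, and RELA occupied 22 with IL-1β and 30 with the cotreatment, being higher by 1 or more at 11 of 33. SLC45A1 held 11 of the 47 sites. Inorganic ion transporters had 42 sites at 16 genes, 23 and 28 of them with GR and 24 and 24 with RELA. Metal transporters had 33 sites at 11 genes, 20 and 27 with GR and 20 and 22 with RELA, and GR was higher by 1 or more at 11 of 30 and RELA at 1 of 24. The organic ion, drug and peptide group, to which the SLCO genes belong, had 34 sites at 11 genes, 16 and 22 with GR and 19 and 24 with RELA. Mitochondrial carriers had 24 sites at 13 genes, 16 and 17 with GR and 11 and 12 with RELA. Vitamin, nucleoside and choline transporters had 16 sites at 10 genes, 11 and 14 with GR and 8 and 11 with RELA. Monocarboxylate, citrate and fatty acid transporters had 12 sites at 5 genes, with GR at 8 and 6 and RELA at 5 and 7. Several groups rest on 1 or 2 loci with many sites.

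Under the cotreatment, both factors occupied 122 of the 266 transporter sites (45.9%), beside 44.6% of all sites. At the SLC46A1 site that held both elements, GR was 3.81 with budesonide and 6.52 with the cotreatment, and RELA 5.72 with IL-1β and 6.57 with the cotreatment. Of the other sites with both elements, that in an intron of SLC35F3, an orphan member of the nucleotide sugar transporter family, had GR at 4.03 and 4.95 and RELA at 3.70 and 4.97. An intronic site of SLC6A9, the glycine transporter GLYT1, had GR at 2.50 and 4.30 and RELA at 1.28 and 3.26. COA6 had the closer start for the SLC35F3 site and CCDC24 for that of SLC6A9. The fourth, in an intron of SLC45A4, had GR at 2.99 and 5.28 and RELA at 1.40 and 4.02. Both factors were higher with the cotreatment at all 4 sites with both elements. The same count was not made over all sites of the table with both elements, so this one has no background. Whether the higher values go with the paired elements was not tested. At the SLC6A9 and SLC45A4 sites neither factor was at 4 in its single treatment. Of the 516 sites of this kind in the table, GR was higher with the cotreatment at 480 and RELA at 453.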

How the data were processed

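GR and RELA ChIP-seq was performed in A549 cells in 18 samples, 2 for each of 9 groups (GR and RELA in NS, IL-1β, budesonide and IL-1β-plus-budesonide cells, and input). The authors demultiplexed reads with bcl2fastq, checked their quality with FastQC 0.10.1 and mapped them with bowtie2 2.4.4 onto GRCh38. The processing notes of the submitters also name SAMtools, MACS2 2.2.7.1 and DiffBind 3.2. The authors deposited a table of 11571 sites with, for 4 combinations of factor and treatment, a log2 intensity pooled over libraries, so depth is unknown. How libraries were scaled is not stated in those sources. Recurring low values were evenly stepped after raising 2 to their power, which gave the base: 66.9% of gaps between recurring GR values with budesonide recurred, against 0.247% with base e. The start column was taken as counted from 0, since 3301 of 5668 checkable distances matched an annotated start so, and 66 otherwise.

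The table also holds the authors' folds over NS, FDRs and labels drawn from them, which are their own comparisons and were not used, so levels in NS cells are not analysed here. Members, gene lists and the limit of 4 were chosen with earlier results of these data known. Intensities were described without tests. Genes were named where they held 1 of the 6 highest intensities in any combination, 1 of the 6 largest differences in either direction, 1 of the 6 largest numbers of sites (9 genes with ties), 1 of the 6 strong sites (intensity of 6 or more) nearest a start, or stood in a list of 17. SLC25A13, SLC28A1, SLC41A2, SLC46A1, SLC35F3 and SLC6A9 were added for their sequence elements, and SLC2A14 as a copy of SLC2A3, after their values were seen. Gene positions came from GENCODE 44, gene counts from RefSeq. On simulated sequences the search recovered 100.0% of planted elements. Scripts ran in Python 3.11.15 with Matplotlib 3.10.9, SciPy 1.17.1, NumPy 2.4.6 and pandas 2.3.3.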

Additional observations from a re-analysis of the deposited data

How the results depend on the processing

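No paired analysis was possible because the table holds 1 pooled value per site, factor and treatment and carries no replicate number; for the same reason no replicate could be left out. Of 42 alternative settings, 20 moved a value. A limit of 5 in place of 4 left 104 sites with GR under the cotreatment, 80 with RELA after IL-1β and 87 with RELA under the cotreatment, and sites with both factors numbered 200 at a limit of 3 and 46 at 5. Taking the strongest site of each gene gave medians of 5.23 and 5.16 for GR (budesonide, cotreatment) and 4.79 and 4.78 for RELA (IL-1β, cotreatment). With a difference of 0.5 in place of 1, GR was lower at 78 sites and RELA higher at 52 and lower at 38, and with a difference of 2, GR was higher at 26 and lower at 8 and RELA higher at 10 and lower at 1. Without an intensity limit RELA was higher at 59 sites, and after centring on the median of all sites it was lower at 8. Looser elements were found in 27.4% (GRE) and 23.3% (κB) of transporter sites, beside 26% and 24.5% of all. Counts within 50 kb of genes stayed within 1.5 times.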
